A study of Mus musculus with 4 samples.

Results

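The genes described here are 10 members of the axis by which growth hormone acts on its target tissues. They are Ghr, which encodes the growth hormone receptor; Stat5b, its signal transducer; Igf1 and Igfals, a hormone and its carrier made on the signal; Socs2 and Cish, feedback inhibitors; Igfbp1, Igfbp2 and Igfbp3, binding proteins of IGF1; and Igf1r, the receptor of IGF1. They were taken by gene symbol, and all 10 had a level well above background on every array, out of 16856 genes with a level in any comparison. Mice lacking Pnpla7 (Pnpla7-/-, called labelled knockout here) and wild-type controls (Pnpla7+/+) were studied, all C57BL/6N and 4 weeks old, in liver and white adipose tissue (WAT). PNPLA7 is a lysophospholipase, and the series as titled concerns the choline that liver regains from phosphatidylcholine. Each of the 4 groups (labelled-knockout liver, wild-type liver, labelled-knockout WAT and wild-type WAT) was 1 single-colour Agilent array of RNA pooled from 5 animals, so there is no replicate check of any difference and no p-value is given. The labels name no treatment, sex or fat depot, and the sources used here do not say how the gene was disrupted.

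Growth hormone from the pituitary binds its receptor, the kinase JAK2 is activated and STAT5 proteins enter the nucleus. In liver, the main source of circulating IGF1, STAT5 drives Igf1, Igfals and Socs2, and the pulse pattern of the hormone sets many genes that differ between male and female livers. IGF1 circulates in a complex with IGFBP3 and the acid-labile subunit encoded by Igfals, while IGFBP1 and IGFBP2 bind it in smaller complexes and are known to be higher in fasting and when insulin is low.

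Promoter sequence is shown for the 3 members with the most divergent readouts below: Igfals, whose liver ratio was the lowest of the 10, Cish, whose WAT ratio was the highest, and Igfbp1, whose tissue ratio was the largest. RefSeq windows of 300 bases (250 before and 50 after the start of transcription, GRCm38.p6) were found for 9 of the 10 genes, 14 windows in all, with none matched for Socs2. The STAT5 motif TTCNNNGAA, which reads the same on both strands, lay in 3 of the 14 windows, against 2726 of 32851 windows of all genes (8.30%). By gene, it lay in 2 of the 9, against 2582 of 27025 of all genes (9.55%). Cish held 2 copies in its 1 window, as did 150 of all windows (0.457% with 2 or more), and Igfals held 1 copy in 2 of its 3 windows. Capitals mark the motif in the first 3 stretches. In the Igfbp1 stretch they mark CAAAACA or CAAAATA on either strand, a core of the element that FOXO proteins bind, picked after the sequence was seen. At least 1 copy of it lay in 3340 of all windows (10.2%), 2 or more lay in 360 (1.096%), and among the 14 windows it lay in that of Igfbp1 alone, with 2 copies. All 4 stretches are on the plus strand, at chr9:107296559-107296678 for Cish, chr17:24877594-24877713 and chr17:24878111-24878230 for Igfals and chr11:7197637-7197786 for Igfbp1.
Cish: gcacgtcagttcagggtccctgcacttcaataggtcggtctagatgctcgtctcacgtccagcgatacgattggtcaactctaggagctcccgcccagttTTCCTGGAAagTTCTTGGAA
Igfals, upstream start: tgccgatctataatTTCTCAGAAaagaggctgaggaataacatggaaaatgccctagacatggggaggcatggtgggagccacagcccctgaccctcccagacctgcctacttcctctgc
Igfals, downstream start: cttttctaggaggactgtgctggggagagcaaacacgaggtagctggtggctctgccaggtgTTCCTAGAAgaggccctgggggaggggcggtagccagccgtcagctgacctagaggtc
Igfbp1: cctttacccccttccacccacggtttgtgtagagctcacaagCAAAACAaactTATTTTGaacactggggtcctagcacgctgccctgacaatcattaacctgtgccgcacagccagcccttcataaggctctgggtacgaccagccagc
The Cish copies began 1 and 12 bases into the transcript, the Igfals copies 236 and 58 bases before their starts, and the Igfbp1 copies 108 and 97 bases before its start. A match describes the letters of the window and is not a bound site.

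Levels are given as multiples of each array's 75th percentile signal and are compared for a gene across arrays, never between genes, since probes differ in brightness. A difference is a log2 ratio, averaged over a gene's probes, with the scanner software's model error in place of a replicate error; that error covers the spot, not animals. A difference was counted when it reached 2-fold. In bulk tissue, fewer cells of a type and less RNA per cell cannot be told apart.

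The 4 arrays lay on 1 slide and had between 65.5% and 72.6% of spots well above background, with 0 saturated. The labels check only in part. Pnpla7 itself had a single probe, which read 7.98 in labelled-knockout liver and 9.04 in wild-type liver (log2 ratio -0.18), and 0.372 in labelled-knockout WAT and 0.739 in wild-type WAT (-0.99); the deleted part of the gene is not given, and a probe outside it checks nothing. Hepatocyte markers exceeded their WAT level 2-fold or more in liver for 9 of 10 measured genes in the labelled knockout and 10 of 10 in wild type. Adipocyte markers were lower for 5 of 5 and 6 of 6. The protocol text names livers as the RNA source of all 4 samples, and these markers are those of different tissues. Both Xist probes were well above background on all 4 arrays, and the Y-linked genes Ddx3y, Eif2s3y, Kdm5d and Uty were not well above background on any.

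In labelled-knockout liver the receptor, the transducer, the hormone and its carrier subunit all read lower than in wild-type liver, while the feedback inhibitors, IGFBP1, IGFBP2 and the IGF1 receptor read higher. Ghr was at 58.6%, Stat5b at 65.7%, Igf1 at 71.3% and Igfals at 51.7% of the wild-type level. Igfbp2, Socs2 and Igfbp1 were 1.89, 1.77 and 1.70-fold higher. None of the 10 members reached 2-fold in either direction, where 1.75% of all 15568 measured genes were higher by 2-fold or more and 0.886% lower by that much. The 10 ratios ran from -0.95 to 0.92 with a median of 0.10, against a median of -0.03 over all genes. Their direction was the same under all 9 other processing settings. The plot of probe levels gives every value behind these ratios.

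**Figure D1:**
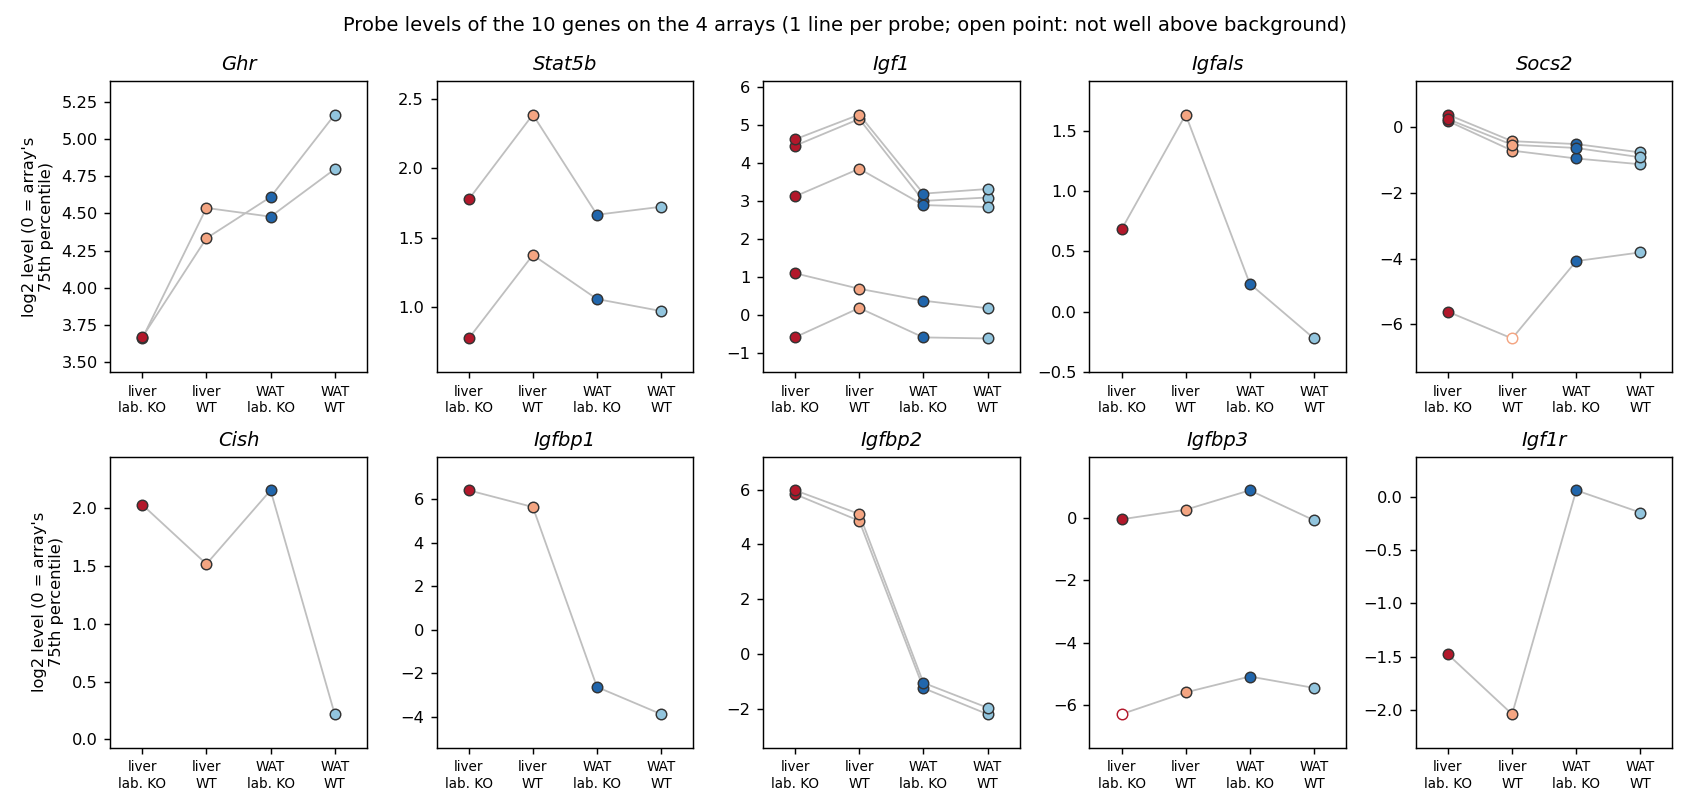
Log2 levels of the 21 probes of the 10 genes on the 4 arrays, relative to each array's 75th percentile (0), with liver left and WAT right and the labelled knockout (lab. KO) left of wild type in each; each line is a probe and open points were not well above background. Both Ghr probes read lowest in labelled-knockout liver, Igfbp1 and Igfbp2 highest there, and Cish was low in wild-type WAT alone.

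Ghr, the receptor that starts the pathway, had levels of 12.7 in labelled-knockout liver, 21.6 in wild-type liver, 23.3 in labelled-knockout WAT and 31.6 in wild-type WAT. Labelled-knockout liver was the lowest of the 4 arrays and wild-type WAT the highest, and labelled-knockout WAT and wild-type liver lay within 2 model errors of each other. The liver log2 ratio was -0.77 with a model error of 0.20, and 1.81% of all genes had a ratio that low or lower. Its 2 probes both read lower in liver. The probe at chr15:3277543-3277602 (minus strand; mm9, as for all probes) gave 12.6 in labelled-knockout liver and 23.2 in wild-type liver, a log2 ratio of -0.88. The probe at chr15:3268107-3268166 gave 12.7 and 20.2, a ratio of -0.66. The exon or UTR each probe lies in was not looked up, since no mm9 annotation was used here.

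Stat5b, the STAT protein through which growth hormone acts in liver, had levels of 2.42 in labelled-knockout liver, 3.68 in wild-type liver, 2.57 in labelled-knockout WAT and 2.54 in wild-type WAT. Wild-type liver stood above the other 3 arrays, which lay within 2 model errors of one another. In liver the log2 ratio was -0.61, with a model error of 0.20. The probes at chr11:100642187-100642246 and chr11:100642045-100642104 (minus strand) gave liver ratios of -0.60 and -0.61. In WAT the same probes gave 0.09 and -0.06. Its neighbour and close paralogue Stat5a differed by less, with a liver log2 ratio of -0.17, from 0.781 in labelled-knockout liver and 0.881 in wild-type liver.

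Igf1 encodes the growth factor that carries much of the hormone's effect on body growth. Its level averaged over 5 probes was 5.81 in labelled-knockout liver, 8.15 in wild-type liver, 3.42 in labelled-knockout WAT and 3.39 in wild-type WAT. Both livers were above both WAT arrays, and the WAT arrays were equal within the model error. The liver ratio of the mean was -0.49 with a model error of 0.20, but the probes were not of 1 direction. The 4 probes to the main transcript read lower in labelled-knockout liver, with log2 ratios between -0.77 and -0.65. A further probe, at chr10:87378456-87378515 and designed to another transcript, read 2.14 in labelled-knockout liver and 1.61 in wild-type liver (0.41). Without that probe the Igf1 liver ratio was -0.71.

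The 4 Igf1 probes of the main transcript lie along its length. The pair at chr10:87393561-87393620 and chr10:87393581-87393640, which overlap, start at bases 889 and 909. The first read 21.8 in labelled-knockout liver and 35.5 in wild-type liver (-0.70), and 7.99 in labelled-knockout WAT and 8.50 in wild-type WAT (-0.09). The probe starting at base 3252 (chr10:87395924-87395983) read 0.669 in labelled-knockout liver and 1.14 in wild-type liver (-0.77), and 0.666 and 0.654 in the matching WAT arrays. The probe starting at base 6909 (chr10:87399581-87399640) gave -0.73 in liver and 0.05 in WAT. The genotype ratio was thus of a similar size along the transcript, whereas the tissue ratio differed between probes. In wild type, liver exceeded WAT by log2 2.06 and 1.95 at the overlapping pair and by 0.80 and 1.005 at the probes farther along. In the labelled knockout the same order of probes gave 1.45, 1.43, 0.01 and 0.23.

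**Figure D2:**
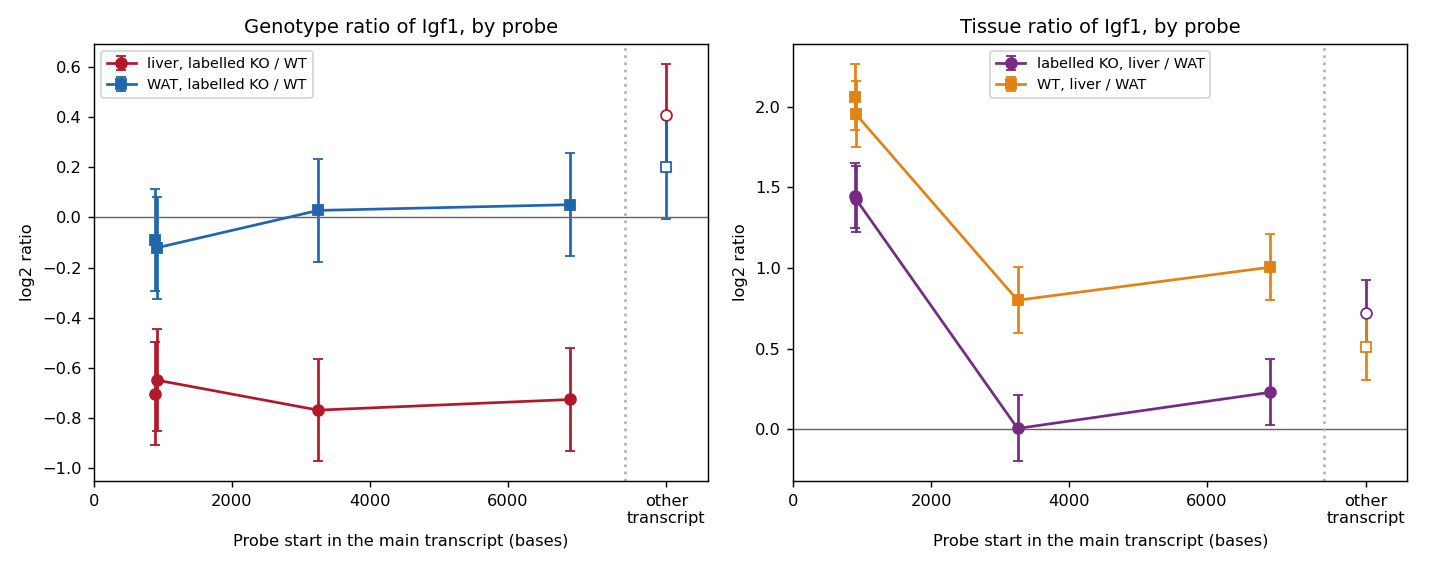
Log2 ratios of the Igf1 probes against the base of the main transcript at which each starts, for the labelled knockout over wild type (left panel) and for liver over WAT (right panel); bars are the software's model error and open symbols are the probe to another transcript. The 4 liver genotype ratios of the main transcript lie between -0.77 and -0.65, while the wild-type tissue ratio is 2.06 at base 889 and 0.80 at base 3252.

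Igfals encodes the acid-labile subunit, which holds IGF1 and IGFBP3 in the long-lived serum complex. Its single probe (chr17:25018251-25018310, plus strand) read 1.60 in labelled-knockout liver, 3.11 in wild-type liver, 1.17 in labelled-knockout WAT and 0.857 in wild-type WAT. All 4 arrays were apart from one another by more than 2 model errors. The liver log2 ratio of -0.95 was the lowest among the members, and 1.01% of all genes had a ratio that low or lower. In WAT the ratio was 0.45, so the gene read higher in the labelled knockout there.

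Socs2 encodes a suppressor of cytokine signalling that marks the growth hormone receptor for degradation, and it is a target of STAT5. It read 1.19 in labelled-knockout liver, 0.673 in wild-type liver, 0.610 in labelled-knockout WAT and 0.518 in wild-type WAT. Labelled-knockout liver was above the other 3 arrays, whose neighbours in order lay within 2 model errors of each other. The log2 ratio in liver was 0.83 with a model error of 0.20. The 3 probes that carry this mean gave liver ratios of 0.90, 0.81 and 0.78. The last of them (chr10:94875066-94875125, minus strand) was printed as 10 spots, and its log2 level varied between spots by an SD of 0.064 in labelled-knockout liver and 0.060 in wild-type liver. A further, dim probe, to another transcript (chr10:94848005-94848064), read 0.0204 in labelled-knockout liver, 0.0116 and not well above background in wild-type liver, and 0.0592 and 0.0711 in labelled-knockout and wild-type WAT. For that probe labelled-knockout liver was 1.18-fold above the lowest signal that counted as measured in wild-type liver, a bound that carries no error.

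Cish encodes another STAT5-induced inhibitor of cytokine receptors. Its single probe (chr9:107204196-107204255, plus strand) read 4.08 in labelled-knockout liver, 2.86 in wild-type liver, 4.45 in labelled-knockout WAT and 1.16 in wild-type WAT. The labelled-knockout arrays of both tissues were the highest and within 2 model errors of each other, and wild-type WAT was far below the other 3. The liver log2 ratio was 0.51 and the WAT ratio 1.93, each with a model error of 0.20.

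Igfbp1, a short-lived binding protein that insulin represses in liver, had levels of 85.1 in labelled-knockout liver, 49.96 in wild-type liver, 0.160 in labelled-knockout WAT and 0.0675 in wild-type WAT at its 1 probe (chr11:7102442-7102501, plus strand). Within each tissue the labelled-knockout array was the higher, and both livers stood far above both WAT arrays. The liver log2 ratio was 0.77 with a model error of 0.20. Igfbp2, a binding protein made by many tissues, had levels of 59.9 in labelled-knockout liver, 31.7 in wild-type liver, 0.453 in labelled-knockout WAT and 0.238 in wild-type WAT. The order of the 4 arrays was the same as for Igfbp1. Its probes at chr1:72898677-72898736 and chr1:72898813-72898872 gave liver ratios of 0.97 and 0.86, and the gene ratio of 0.92 passed 2-fold with quantile normalization and with a normexp background correction, at up to 1.098.

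Igfbp3, the main carrier of IGF1 in serum and a product of liver cells other than hepatocytes, read 0.965 in labelled-knockout liver, 1.19 in wild-type liver, 1.84 in labelled-knockout WAT and 0.945 in wild-type WAT at the probe chr11:7106594-7106653 (minus strand). Labelled-knockout WAT stood above the rest, whose neighbours in order did not differ by more than 2 model errors. In liver this gave a log2 ratio of -0.31. Its other probe (chr11:7107949-7108008) was not well above background in labelled-knockout liver, at 0.0127, against 0.0207 in wild-type liver. Wild-type liver was there 1.38-fold above the lowest signal that counted as measured in labelled-knockout liver, a bound that carries no error. Igfbp3 and Igfbp1 are neighbouring genes on chromosome 11, and their liver ratios had opposite signs.

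Igf1r, the receptor through which IGF1 signals, had levels of 0.359 in labelled-knockout liver, 0.243 in wild-type liver, 1.04 in labelled-knockout WAT and 0.903 in wild-type WAT (chr7:75378461-75378520, plus strand). Both WAT arrays were above both livers. Hepatocytes are known to carry little of this receptor. By genotype, the log2 ratio was 0.56 in liver with a model error of 0.21, and 0.21 in WAT, within 2 model errors of 0.

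**Figure D3:**
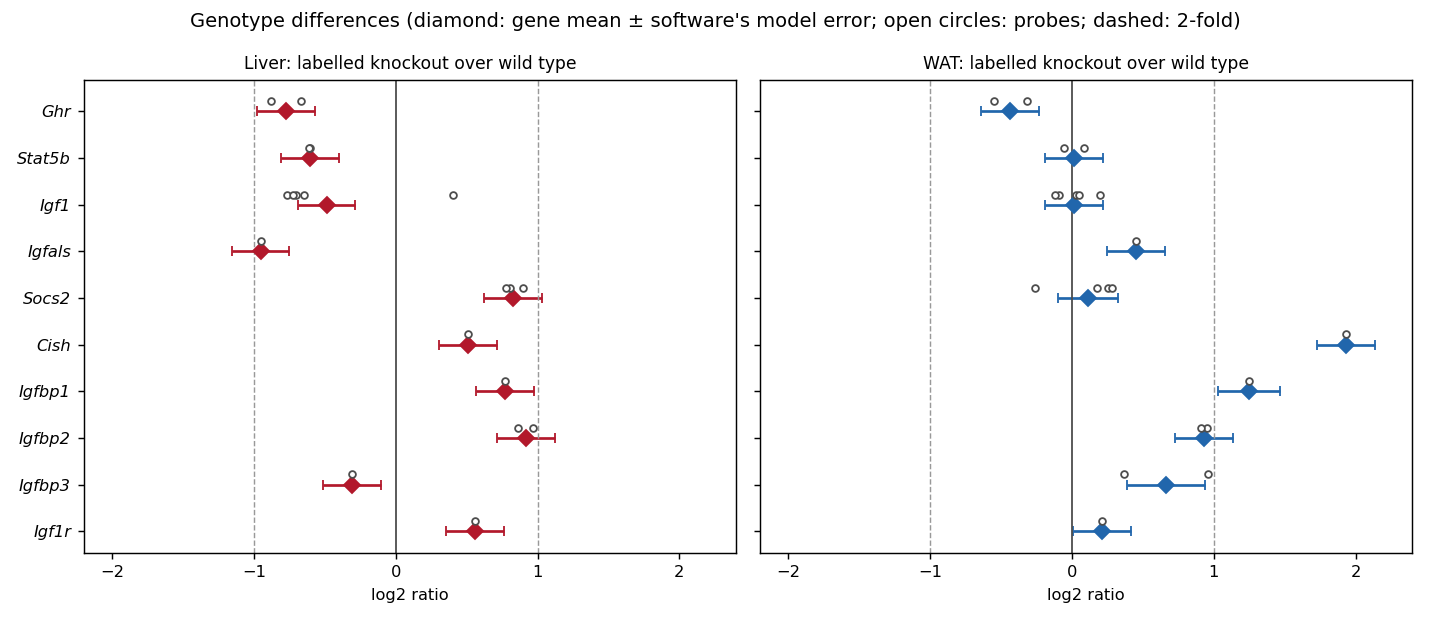
Log2 ratio of labelled knockout over wild type for the 10 genes in liver (left) and WAT (right); diamonds are gene means with the software's model error, open circles single probes, and dashed lines 2-fold. In liver the means lie between -0.95 and 0.92, and in WAT Cish (1.93) and Igfbp1 (1.25) lie past 2-fold.

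In labelled-knockout WAT the inhibitor Cish and the binding proteins were higher than in wild-type WAT, while Igf1 and Stat5b hardly differed. Cish was 3.82-fold and Igfbp1 2.38-fold higher, Igfbp2 1.90-fold and Igfbp3 1.58-fold. Those at least 2-fold higher were 2 of 10, and 0 were lower, against 2.16% of 16131 genes higher and 2.01% lower. The median of the members was 0.33, and that of all genes 0.02. Only 0.508% of all genes had a ratio as high as that of Cish, and 1.40% one as high as that of Igfbp1.

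The other WAT ratios were smaller. Ghr read at 73.9% of the wild-type level (-0.44), with probe ratios of -0.32 and -0.55, so it was the 1 member lower in the labelled knockout of both tissues by more than 2 model errors. The Igfbp3 probes gave 0.96 and 0.37, the second from the dim probe, and the Igfbp2 probes 0.95 and 0.91. Igf1 and Stat5b had log2 ratios of 0.01 each, and their sign depended on the processing. Socs2 had 0.11, with its 3 brighter probes between 0.18 and 0.28 and the dim one at -0.26.

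Other cell types differed between the WAT pools. All 10 skeletal muscle markers were well above background on both WAT arrays, and all 10 were at least 2-fold higher in labelled-knockout WAT, with a median log2 ratio of 4.21 and a summed level of 51.1 in labelled-knockout WAT against 3.44 in wild-type WAT. Macrophage markers had a median of -0.77 (summed level 8.70 in labelled-knockout WAT and 14.04 in wild-type WAT) and endothelial markers one of -0.45 (12.6 and 15.4). Markers of cholangiocytes and other epithelium, 5 of 6 measured, had 2 genes higher by 2-fold or more and a median of 0.63, with a summed level of 5.35 in labelled-knockout WAT and 2.27 in wild-type WAT. Those genes were Cldn3, a tight junction gene (4.58), and the keratin gene Krt18 (2.17). Fibroblast and stellate markers had a median of -0.40 (173 and 201), B and T cell markers one of -0.11 (0.737 and 0.830) and adipocyte markers one of 0.17 (856.4 and 761.6). Of the 9 adipocyte markers 0 were at least 2-fold higher and 1 was lower by as much. That gene, Lep, read 0.746 in labelled-knockout WAT and 2.97 in wild-type WAT (-1.99). The part of these differences in the ratios of Cish, Igfbp1, Igfbp2, Igfbp3, Igfals and Ghr in WAT was not tested. Of the hepatocyte markers 0 of 10 were at least 2-fold higher in labelled-knockout WAT and 5 were lower, with a median of -0.95. Their summed level was 134 in labelled-knockout WAT and 86.6 in wild-type WAT, of which Cyp2e1 alone gave 126 and 66.9. The other 9 read lower in labelled-knockout WAT. Any part of hepatocyte RNA in the WAT ratios of the members was not tested. In liver the medians of the 8 marker lists ran from -0.41 for skeletal muscle, with 3 genes measured, to 0.38 for adipocytes, with 5 of 9 measured, Cidec the 1 past 2-fold (2.46), and Adipoq, Plin1, Lep and Cfd not well above background in labelled-knockout liver. Hepatocyte markers had a median of -0.26 there, with 0 of 10 past 2-fold.

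The genotype difference was set against itself in the tissues as the liver log2 ratio minus the WAT ratio, over the probes well above background on all 4 arrays. It passed 2-fold for 3 members, Cish (-1.42), Igfals (-1.41) and Igfbp3 (-1.27), all with the lower ratio in liver, and for 0 in the other direction. Over 14888 genes 4.62% had the higher ratio in liver by 2-fold or more and 3.51% the lower. The errors of these differences were 0.29, 0.29 and 0.34. The value of Igfbp3 rests on its brighter probe; with both probes kept for WAT it was -0.97, short of 2-fold. That of Socs2 leaves out its dim probe, and was 0.71 with that probe kept for WAT. Igfals and Igfbp3 read lower in labelled-knockout liver and higher in labelled-knockout WAT, each against wild type, whereas Cish read higher in both and more so in WAT. Stat5b (-0.62), Socs2 (0.59) and Igf1 (-0.50) followed, and Igfbp2 was near 0 (-0.01), with equal ratios in the tissues. The difference of Ghr, -0.33, was near its error of 0.29 and came to 0.00 under another setting.

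Between tissues, the binding proteins IGFBP1 and IGFBP2 set liver apart. Igfbp1 in liver exceeded its WAT level 530-fold in the labelled knockout and 740-fold in wild type. Igfbp2 did so 132-fold and 134-fold. Igf1r was the 1 member at least 2-fold lower in liver, at 34.4% of the WAT level in the labelled knockout and 27.0% in wild type. In the labelled knockout 2 of 10 members were past 2-fold towards liver and 1 towards WAT, against 13.7% and 17.7% of 15338 genes. In wild type 5 were past it towards liver and 1 towards WAT, against 15.6% and 18.1% of 15305 genes. The median of the members was 0.13 in the labelled knockout, against -0.14 over all genes, and 0.90 in wild type, against -0.04.

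The 3 members past 2-fold in wild type alone were Igf1, Igfals and Cish. Igf1 in liver exceeded its WAT level 1.70-fold in the labelled knockout and 2.41-fold in wild type. Igfals did so 1.37-fold and 3.62-fold. Cish had a log2 ratio of -0.12 in the labelled knockout and 1.30 in wild type. Both tissue contrasts rest on the same 4 arrays as the genotype contrasts, so these are the differences described above in another arrangement. Ghr read lower in liver than in WAT in both genotypes, with log2 ratios of -0.88 in the labelled knockout and -0.55 in wild type. Stat5b had -0.09 and 0.53. Igfbp3 had -0.93 in the labelled knockout, from its brighter probe alone. In wild type it had 0.10 from both probes and 0.34 from the brighter one. Socs2 had 0.34 and 0.38. In the labelled knockout its dim probe gave -1.54 and its 3 brighter probes 0.87, 0.89 and 1.14. Its wild-type value rests on the 3 brighter probes alone.

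**Figure D4:**
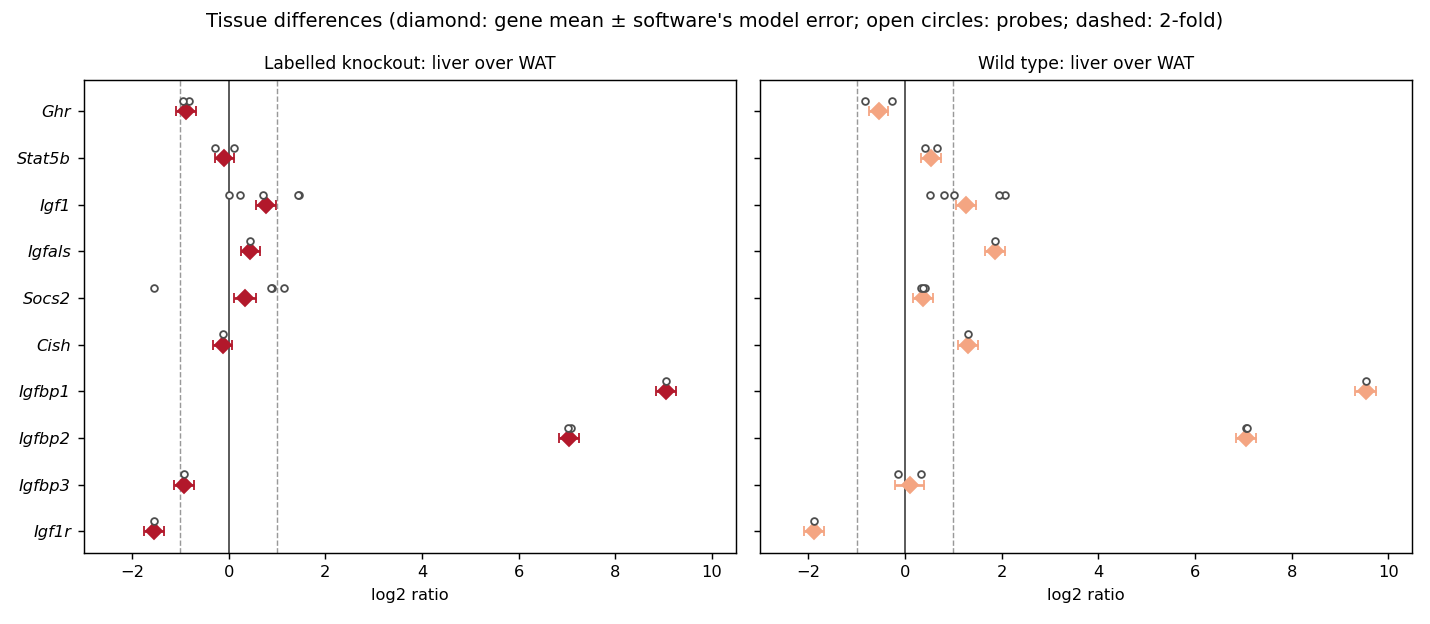
Log2 ratio of liver over WAT for the 10 genes in the labelled knockout (left) and wild type (right); diamonds are gene means with the software's model error, open circles single probes, and dashed lines 2-fold. Igfbp1 (9.05 and 9.53) and Igfbp2 (7.05 and 7.06) lie far to the right in both genotypes, and Igf1r (-1.54 and -1.89) to the left.

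Genes around the receptor were looked at next. Of 23 other genes of growth hormone receptor signalling, among them Jak2, Stat3, the phosphatases and the other SOCS genes, all 23 were measured in both tissues and 0 reached 2-fold in either. With 1.75% and 0.886% of all genes past 2-fold in liver, and 2.16% and 2.01% in WAT, that count is near the share of all genes. Their median was -0.04 in liver and -0.02 in WAT, against -0.03 and 0.02 over all genes. The largest liver difference was that of Prlr, the prolactin receptor, which is closely related to GHR, with levels of 1.83 in labelled-knockout liver and 3.53 in wild-type liver (-0.96). Onecut1, a liver transcription factor, had 3.496 and 2.33 (0.63). Bcl6, a repressor that competes with STAT5 for its sites, had 3.40 and 4.94 in the same arrays (-0.54), and Lifr, a receptor of the same cytokine class, 5.33 and 7.35 (-0.50). Jak2, the kinase of the receptor, read 1.25 in labelled-knockout liver and 1.33 in wild-type liver. In WAT the kinase gene Lyn had a ratio of -0.79, the phosphatase gene Ptpn6 -0.64 and Bcl6 -0.37.

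Among 22 other genes of the IGF system, 16 were measured in liver, with 0 past 2-fold and a median of -0.04. Htra1, a protease that cleaves IGF binding proteins, had the largest ratio at -0.62, followed by the binding protein genes Igfbp6 (-0.46) and Igfbp5 (-0.43) and by Igf2r (0.30), which clears IGF2. In WAT 17 were measured, with a median of -0.31 and 1 past 2-fold. That gene, Stc2, encodes a stanniocalcin that inhibits the protease PAPP-A, which frees IGF1 from its binding proteins. It read 0.191 in labelled-knockout WAT and 0.476 in wild-type WAT (-1.32). Htra1 (-0.69) and Grb14 (-0.64), an adaptor that inhibits the insulin receptor, were lower, and Irs2, a substrate of the insulin and IGF1 receptors, was higher (0.47).

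The secretion pattern of growth hormone is known to set many liver genes that differ between the sexes. Both lists of such genes used here were chosen with earlier results of these data known. Their counts beside the shares of all genes are therefore no independent check. Of 18 measured genes on a list of 20 that are higher in female livers, 12 read lower by 2-fold or more in labelled-knockout liver and 0 higher, where 0.886% of all genes were lower and 1.75% higher by that much, and the median was -1.70. Their summed level was 171 in labelled-knockout liver and 446 in wild-type liver. The largest ratios were those of the cytochrome P450 gene Cyp2b13, at 1.20 in labelled-knockout liver and 20.9 in wild-type liver (-4.12), A1bg, at 0.0535 and 0.737 (-3.78), the sulfotransferase gene Sult3a1 (-3.12) and the hydroxy acid oxidase gene Hao2 (-2.86). Cux2, a transcription factor specific to female liver, had -0.39, and Trim24, a transcriptional cofactor, -0.17.

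Of 15 measured genes on a list of 16 that are higher in male livers, 4 were higher by 2-fold or more, none was lower by as much (0 of 15), beside the same shares of 1.75% and 0.886% of all genes, and the median was 0.58. The transporter gene Slco1a1 read 1.83 in labelled-knockout liver and 0.382 in wild-type liver (2.26). The steroid dehydrogenase gene Hsd3b5 read 1.31 and 0.386 (1.76), and the fatty acid hydroxylase genes Cyp4a12b and Cyp4a12a had ratios of 1.74 and 1.17. Cyp7b1, also on the list, had -0.64. Several of these genes belong to families of near-identical copies, whose probes may read more than 1 copy. In WAT, where 9 genes of the female list and 11 of the male list were measured, the medians were -0.21 and 0.08, with 2 genes past 2-fold in each direction on the female list and, on the male list, 1 higher and 2 lower. There Elovl3, an elongase, had the largest ratio, at 0.918 in labelled-knockout WAT and 0.0277 in wild-type WAT (5.05).

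**Figure D5:**
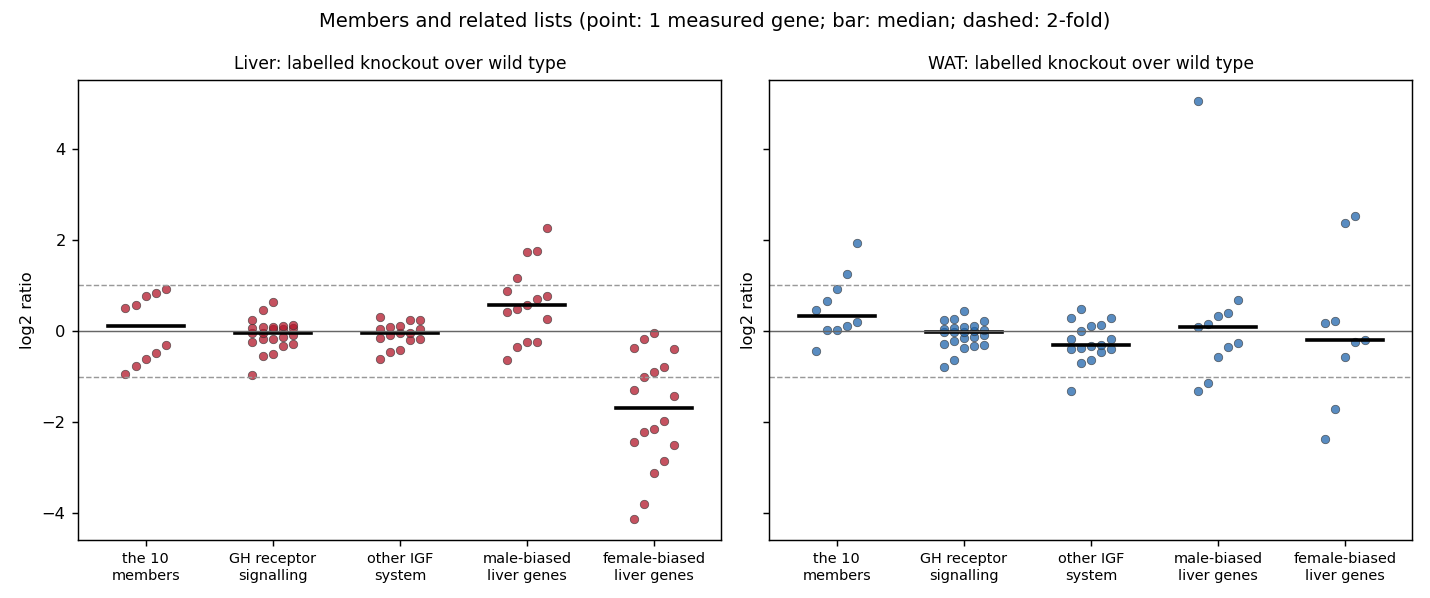
Log2 ratio of labelled knockout over wild type for each measured gene of the axis and of 4 related lists, in liver (left) and WAT (right); bars are list medians and dashed lines 2-fold. In liver the female-biased list has a median of -1.70 and the male-biased list one of 0.58, against 0.10 for the 10 members and -0.04 for each of the other lists.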

How the data were processed

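RNA of liver and WAT was hybridised to 4 single-colour arrays, 1 pool of 5 animals each, with 200 ng labelled. Spot intensities were deposited as scanner output of Agilent Feature Extraction 11.0.1.1, per the submitters' processing notes. The processed intensity had its background removed and was not normalized between arrays, per the file headers. The authors' series table holds other values: each column was that signal divided by 1 constant (1764, 1470, 1613 and 1690 for labelled-knockout liver, wild-type liver, labelled-knockout WAT and wild-type WAT), so scale, centring and direction were settled; its medians were 0.0751, 0.0737, 0.0875 and 0.0876.

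Each array's 75th percentile over 43020 non-control spots was taken off the log2 processed signal, which was then averaged over the spots of a probe and the probes of a gene (Python 3.11.15, numpy 2.4.6, pandas 2.3.3). Probes counted as measured in a comparison if more than a 0.5 share of spots passed the software's background flag on each of its arrays, and otherwise gave a bound against the lowest such signal. Of 39429 probes 27234 were named by accession, 3576 by symbol and 565 by synonym in RefSeq (GRCm38.p6, used for names and promoters only). The other 8054 were not matched to a RefSeq gene and were left out of the counts of genes. The genes and lists were chosen with earlier results of these data known. Of each list up to 4 genes with the largest ratio per tissue are named, except 1 that is not reported here; Jak2, Stat5a, Cux2, Trim24, Cyp7b1, Cyp2e1, Xist and the Y-linked genes were picked after their values were seen. No test was made, since a group was 1 array. Between probes of a gene the pooled SD of the log2 ratio was 0.26 in liver and 0.30 in WAT, and the median model error, from a preset multiplicative error of 0.1, was 0.20. The averaging, ratio and 2-fold counting steps were run on simulated arrays with planted differences and an assumed noise. That run does not check the noise of these arrays. The 8 other settings were normexp at 2 offsets (limma 3.58.1, R 4.3.3), quantile normalization, 2 other scalings, the authors' table, no filter on dim probes and the brightest probe; 1 without the probes to other Igf1 and Socs2 transcripts was added after seeing the data.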

Additional observations from a re-analysis of the deposited data

Results flagged for a closer look

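For Igfals and Igfbp3 the genotype difference ran in opposite directions in the tissues, each by more than the model error. Igfals had a liver ratio of -0.95 and a WAT ratio of 0.45, a difference of -1.41. Igfbp3, at its brighter probe, had -0.31 and 0.96, a difference of -1.27, which was -0.97 with both probes kept for WAT. Each side is 1 array of 1 pool, and the difference was not tested. The liver ratio of Igfbp3 was within 2 model errors of 0.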

How the results depend on the processing

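No paired analysis was possible because each group had 1 array, and no replicate could be left out. Of 450 values of single genes over the 9 other settings, 416 stayed within the model error of the ratio and 34 moved by more, 22 of them between the wild-type tissues (by up to 0.76) and 3 in the liver genotype ratio (by up to 0.26). Measured against the larger pooled SD between probes of a gene, 2 moved by more, with normexp at offset 50: the Igfbp1 ratio in WAT, which was 0.90 there against 1.25, and its difference between tissues, -0.07 against -0.48. The number of members past 2-fold was therefore 1 in WAT with that setting, and in liver it was 1 with that setting and 1 with quantile normalization (Igfbp2). In 8 of 50 results some setting changed the sign, among them Igf1 and Stat5b in WAT, Cish and Stat5b between the labelled-knockout tissues, and Igfbp3 and Socs2 between the wild-type tissues (-0.37 for Socs2 at the lowest); the others were Ghr and Igfbp2 in the difference between tissues. Ghr passed 2-fold between tissues with quantile normalization, at -1.19 in the labelled knockout and -1.20 in wild type. Igf1 in wild type fell short of it there (0.97) and passed it in the labelled knockout with its brightest probe (1.43). Igfbp3 in the labelled knockout passed it without the filter (-1.07). Over all genes the settings mattered more. In liver 273 genes were higher and 138 lower, against 103 and 242 with normexp at offset 50, 113 and 1467 at offset 0, and 710 and 446 without the filter; the share of higher genes was 66.4%, 29.9% and 7.15% for the main setting and the offsets, and the median of all genes moved to -0.19 and -0.20. In WAT 349 and 325 became 216 and 163 with offset 50 and 713 and 703 without the filter. For the difference between tissues, 688 and 523 became 321 and 1810 at offset 0 and 1561 and 1324 without the filter, and the share of higher genes, 56.8%, was 22.7% and 15.1% with the offsets, the median moving to -0.23 and -0.25. Between wild-type tissues the share higher, 46.2%, was 56.6% and 62.3% with the offsets and 56.9% with median scaling, with the median at between 0.21 and 0.23. Between labelled-knockout tissues the median of all genes was 0.06 with median scaling and -0.28 without the filter. The cause was not tested. The 75th percentile was between 193 and 271 times the mean of negative controls, and the number of arrays limits the precision.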
